A study of Mus musculus with 8 samples.

Results

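Enzymes that place or remove methyl groups on the lysines of histones were examined in the RNA of bone marrow-derived mast cells (BMMCs), which are mast cells grown in culture from mouse bone marrow. The 46 genes were taken by their symbols, as autosomal protein-coding genes named Kdm or Kmt followed by a number, Setd followed by a number, Ezh1 or Ezh2, Ehmt1 or Ehmt2, Suv39h, Nsd1 to Nsd3, Ash1l, Dot1l and Smyd1 to Smyd5. They are 31 methyltransferases or SET and SMYD proteins and 15 demethylases or JmjC proteins, among 56748 gene IDs in the deposited tables. Another 7 genes with matching symbols lie on a sex chromosome or are not protein-coding and were left out, among them Kdm5c, Kdm6a and Suv39h1.

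The cells came from C57BL/6 mice aged 6 to 8 weeks, with both sexes used in the study, and had been grown with IL-3 for at least 4 weeks. In the Mettl3-RNP group, resting cells carrying the genotype label Mettl3 KO had been electroporated with Cas9 ribonucleoproteins whose guides cut Mettl3, the enzyme that writes N6-methyladenosine (m6A) on mRNA. In the Pulsed group, labelled Mettl3 WT, cells received the electric pulse without ribonucleoprotein, so Cas9 itself had no control. Each group has 4 libraries with the numbers 1 to 4, and the design text names 4 mice as their source. Edited cells were not sorted. The study's methods ask for a Mettl3 protein depletion of at least 70% before RNA was extracted, so each Mettl3-RNP library is a mixture of edited and unedited cells.

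Histone lysine methylation marks the state of a gene. Methylation of lysine 4 of histone H3 (H3K4) marks promoters and enhancers in use, H3K36 and H3K79 mark transcribed gene bodies, and H3K27 and H3K9 mark genes that are kept silent. The SET domain carries the methyltransferase activity of nearly all writers, Dot1l excepted, and the marks are removed by the amine oxidases Kdm1a and Kdm1b or by enzymes with a JmjC domain. Several of them, Ezh2, Kmt2a and Kdm1a among them, are known regulators of blood cell development.

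Total counts were 32643260 to 45324826 per library. Mettl3 RNA was at 12.3, 9.15, 4.88 and 9.20 counts per 1000000 counts of the library (CPM) in Mettl3-RNP 1 to 4 and at 25.9, 24.5, 11.1 and 26.5 CPM in Pulsed 1 to 4, and it was lower in 4 of 4 pairs of same-numbered libraries. The fitted difference was -1.30 on the log2 scale (SE 0.109, adjusted p 0.00543), from edgeR's quasi-likelihood test blocked by replicate number. This RNA also carries reads outside the cut sites, so it does not measure the share of edited alleles. All 10 mast cell markers examined passed the filter on low counts, with summed levels of 46053 to 62476 CPM in Mettl3-RNP and 49790 to 68198 CPM in Pulsed libraries, and Cpa3 was the 1 that changed (lower). Markers of other cells were examined as well. The 6 macrophage markers summed to 5.11 to 29.4 CPM in Mettl3-RNP and 5.72 to 10.8 CPM in Pulsed libraries, with Csf1r, Mrc1, C1qa and Marco below 1 CPM in every library. Of these markers Adgre1 changed (lower, adjusted p 0.0435 by edgeR). Cd68 stood at 3.71, 23.7, 11.1 and 28.2 CPM in Mettl3-RNP 1 to 4 and at 5.0004, 3.16, 6.55 and 3.26 CPM in Pulsed 1 to 4 (adjusted p 0.142 by edgeR), so it was higher in pairs 2, 3 and 4. The 4 basophil markers, which mast cells express in part, summed to 539 to 854 CPM in Mettl3-RNP and 564 to 681 CPM in Pulsed libraries. Cd200r3 made up most of these sums, at 509 to 817 CPM in Mettl3-RNP and 498 to 622 CPM in Pulsed libraries. Mcpt8 and Prss34 were at most 4.02 CPM in any library, and Il18rap changed (lower, adjusted p 0.0324 by edgeR). The part of these cell markers in the results was not tested. Neutrophil, erythroid, and T and B cell markers summed to at most 4.77 CPM in any library, and none of the 3 that passed the filter changed. In bulk RNA, fewer cells of a kind and less RNA per cell cannot be told apart.

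To ask whether cells depleted of Mettl3 carried other levels of these enzymes, the 44 members that passed the filter (all except Kdm4d and Smyd1) were compared between the groups in the fit across all 14942 tested genes. None of the 44 members passed an adjusted p of 0.05 in edgeR, against 3.74% of all tested genes. At an unadjusted p under 0.05 there were 5 members (11.4%), namely Ash1l, Setd2, Kdm2b and Nsd2 with higher and Ezh2 with lower fitted levels in Mettl3-RNP cells, against 22.5% of all tested genes. In DESeq2, Ash1l, Setd2 and Ezh2 passed an adjusted p of 0.05, where 11.7% of all genes passed, and in limma-voom Setd2 alone passed, where 4.3% passed. Which of these 3 genes were called moved with the setting, so they are described below by their values.

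The members' differences were small in size. Their median log2 fold change was 0.018 (24 above and 20 below 0), against -0.0013 over all tested genes. Without replicate 1, 16 members were above and 28 below 0, and with library size alone 29 were above and 15 below. The median over all tested genes moved in the same direction, to -0.025 without replicate 1 and to 0.032 with library size alone. Signs of values near 0 that turned with library size alone thus went with a shift of all genes. Without replicate 1 the members' median moved further, to -0.047. Without replicate 2 the members' median was 0.021 where that of all genes was -0.023. With each pair left out in turn, 25 of the 44 members kept their sign and 19 did not. The fitted value stayed within 1.5 times for 10 of them, namely Ash1l, Setd2, Nsd2, Nsd3, Ezh2, Kdm2b, Kmt2a, Setd3, Setd4 and Setd6. For the members the median absolute log2 fold change was 0.067, against 0.180 over all tested genes. At mean levels of 10 CPM or more it was 0.067 for 40 members and 0.134 for all genes. The 95% confidence interval of the difference lay within a 1.5-fold change in either direction for 41 of 44 members (93.2%), against 56.6% of all tested genes, and for 39 of 40 (97.5%) against 87.1% at 10 CPM or more. The exceptions were Ash1l, Setd4 and Setd6. In 7 members (15.9%) all 4 pairs differed in the same direction, Ash1l, Kdm2b, Setd2 and Setd6 upward and Ezh2, Setd3 and Setd4 downward, against 31.7% of all tested genes.

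**Figure D1:**
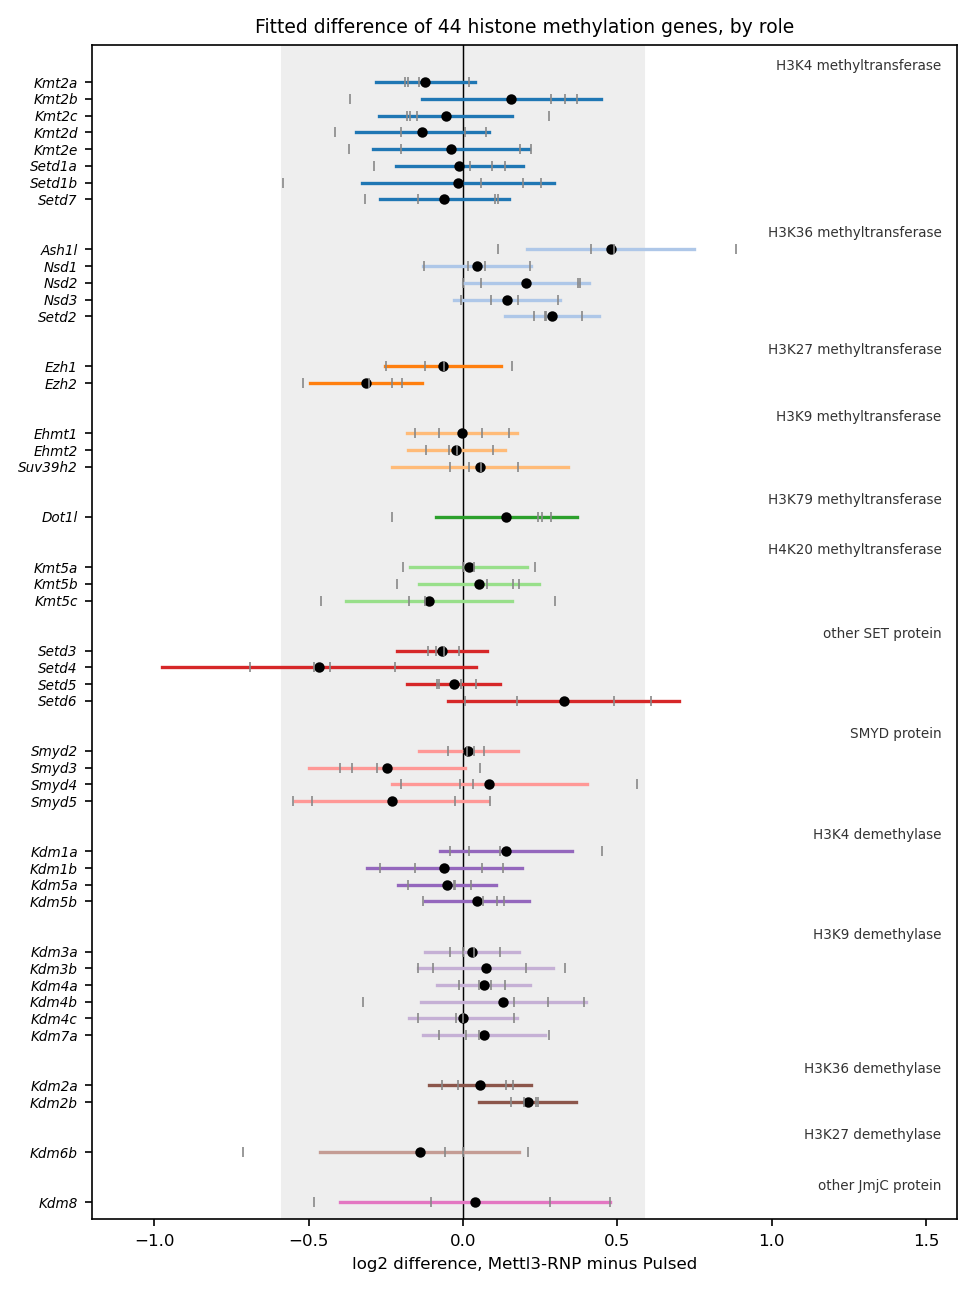
Fitted log2 difference between Mettl3-RNP and Pulsed cells (x axis, black points) with its 95% confidence interval (coloured lines) and the 4 differences of same-numbered libraries (grey ticks) for the 44 tested members (y axis), grouped by role, with the shaded band marking a 1.5-fold change in either direction. The intervals of Ash1l, Setd4 and Setd6 leave the band, and those of Ash1l, Setd2, Nsd2, Kdm2b and Ezh2 do not cross 0.

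All 5 methyltransferases of H3K36 had fitted log2 fold changes above 0, from 0.046 to 0.48 with a median of 0.20, and none of them passed an adjusted p of 0.05 in edgeR. Each of the 5 was also above 0 under the other scalings, and without replicate 4 the count was 4 of 5.

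Ash1l, a large SET protein that acts on H3K36 near active genes, stood at 151, 121, 55.1 and 149 CPM in Mettl3-RNP 1 to 4 and at 114, 86.4, 50.9 and 80.4 CPM in Pulsed 1 to 4. The groups overlapped because both replicate 3 libraries were low, yet Mettl3-RNP was the higher library of each pair. The log2 differences were 0.41, 0.49, 0.11 and 0.89 in pairs 1 to 4, and the fitted log2 fold change was 0.48 (SE 0.117, adjusted p 0.0657 by edgeR). Over 13 alternatives the adjusted p of Ash1l ran from 0.00110 in DESeq2 to 0.999 without the block, and 5 of them passed. Without replicate 3 the log2 fold change of Ash1l was 0.59 with an adjusted p of 0.0395 in edgeR, where 2.57% of all tested genes passed, and it also exceeded a fold change of 1.5.

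Setd2, the enzyme that trimethylates H3K36 behind elongating RNA polymerase II, stood at 186, 170, 344 and 191 CPM in Mettl3-RNP 1 to 4 and at 158, 141, 286 and 146 CPM in Pulsed 1 to 4. Replicate 3 was the highest of both groups, and Pulsed 3 lay above 3 of the Mettl3-RNP libraries. The pairs were close to each other, with log2 differences of 0.23, 0.27, 0.27 and 0.39, which gave a fitted log2 fold change of 0.29 (SE 0.066, adjusted p 0.0561 by edgeR). The adjusted p of Setd2 ran from 0.00197 in DESeq2 to 0.999 without the block over 13 alternatives, of which 6 passed. Of the Nsd enzymes, which dimethylate H3K36, Nsd2 had a log2 fold change of 0.20 (SE 0.088, adjusted p 0.222 by edgeR), Nsd3 of 0.14 and Nsd1 of 0.046.

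Because Mettl3 methylates adenosines within short consensus motifs, the commonest form of the motif, GGACT, was located on the transcript strand of the canonical transcripts. All 44 tested members held at least 1 GGACT, as did 93.8% of 12056 tested protein-coding genes, and 21 members (47.7%) held one within 200 bases of the stop codon, against 40.3%. Shown here are matches in the 3 members with the smallest p-values and in Setdb1, a gene described further on. Each is the match nearest the stop codon among those whose 25-base window lies within a single exon. The motif is in capitals and read 5′ to 3′ (GRCm39). No m6A measurement was used, so a match does not say that the adenosine was methylated.
Ash1l, chr3:88984460-88984484, plus strand, exon 28 of 28, 3′ UTR: ctctggacatGGACTggggcagaaa
Setd2, chr9:110379875-110379899, plus strand, exon 3 of 21, coding: acctagggtgGGACTtttcccaaca
Ezh2, chr6:47522667-47522691, minus strand, exon 10 of 20, coding: agagaagcagGGACTgaaactgggg
Setdb1, chr3:95231457-95231481, minus strand, exon 22 of 22, 3′ UTR: aactcacttgGGACTacaactacga

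The site of Ash1l lies 83 and that of Setdb1 69 bases from the stop codon, while those of Setd2 and Ezh2 lie 3913 and 1085 bases away, within the coding sequence. The transcripts hold 14 matches in Ash1l, 6 in Setd2, 2 in Ezh2 and 8 in Setdb1.

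Both H3K27 methyltransferases had fitted differences below 0. Ezh2, the catalytic subunit of Polycomb repressive complex 2 (PRC2) in dividing cells, stood at 51.7, 44.3, 13.9 and 66.6 CPM in Mettl3-RNP 1 to 4 and at 59.3, 63.5, 16.3 and 82.3 CPM in Pulsed 1 to 4. Mettl3-RNP was the lower library of each pair, and both replicate 3 libraries lay below the other 6. The log2 differences were -0.20, -0.52, -0.23 and -0.31, and the fitted log2 fold change was -0.31 (SE 0.078, adjusted p 0.0683 by edgeR). Over 13 alternatives the adjusted p of Ezh2 ran from 0.0343 in DESeq2 to 0.999 without the block, and 2 of them passed. Ezh1, its paralog in resting cells, had a log2 fold change of -0.065 (SE 0.081, adjusted p 0.698 by edgeR).

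The ratio of Ezh2 to Ezh1 in transcripts per 1000000 transcripts (TPM, a level per exon length) was 0.515, 0.804, 0.610 and 1.10 in Mettl3-RNP 1 to 4 and 0.658, 1.06, 0.602 and 1.31 in Pulsed 1 to 4. The ratio was lower in Mettl3-RNP cells in pairs 1, 2 and 4 and nearly equal in pair 3, and it varied more between replicate numbers than between groups. The exons of Ezh2 overlap those of Cul1 on the opposite strand, and the strand setting of the counting is not given in the sources used here.

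Kdm6b, the JmjC enzyme that removes H3K27 methylation and is induced by inflammatory signals in myeloid cells, stood at 157, 111, 189 and 92.0 CPM in Mettl3-RNP 1 to 4 and at 136, 111, 309.9 and 95.9 CPM in Pulsed 1 to 4. Pulsed 3 lay far above every other library, and the log2 differences were 0.21, -0.0010, -0.71 and -0.059. The fitted log2 fold change was -0.14 (SE 0.139, adjusted p 0.614 by edgeR), and without replicate 3 it was 0.049.

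**Figure D2:**
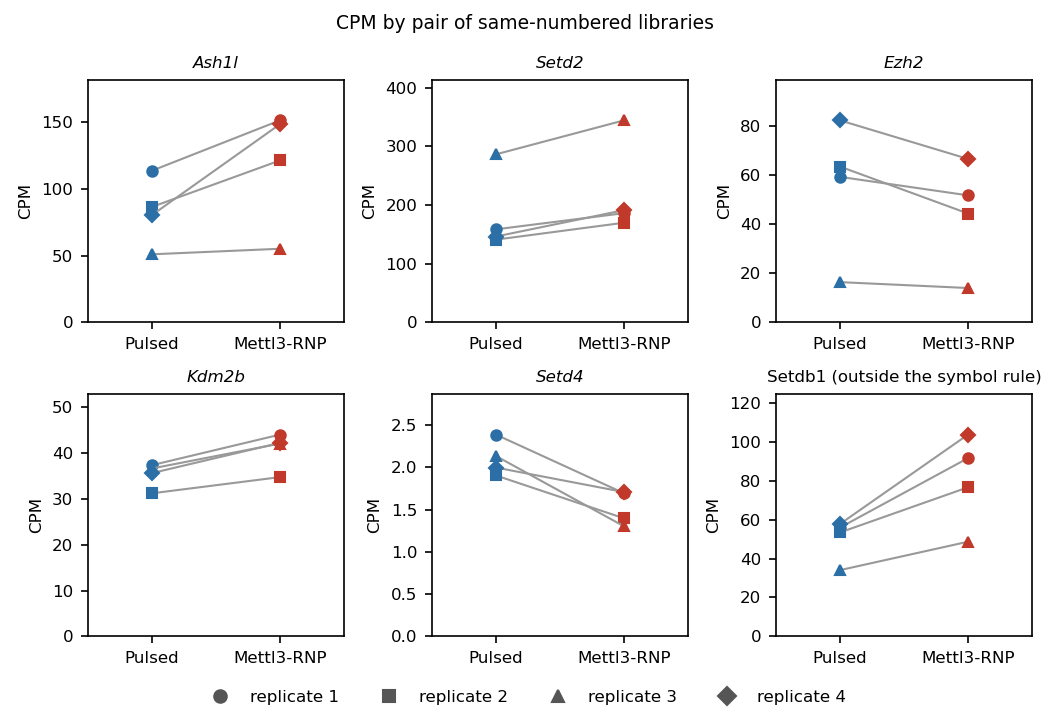
CPM (y axis, from 0) in Pulsed and Mettl3-RNP cells (x axis) for 5 members and Setdb1, with 1 marker shape per replicate number and a line joining the libraries of a pair. Lines slope the same way in all 4 pairs of each gene, while the replicate 3 triangles lie apart from the other numbers for Ash1l, Setd2, Ezh2 and Setdb1.

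Of 8 methyltransferases of H3K4, 7 had fitted log2 fold changes below 0 and Kmt2b alone was above 0 at 0.16. Kmt2e was counted among the 8 by its family. The 8 values ran from -0.13 to 0.16 with a median of -0.048, and the smallest adjusted p was 0.349 in edgeR. The direction rested on replicate 3, since without it 5 of the 8 were above 0 (3 of 8 with library size alone, where all genes shifted upward). Kmt2a, the founding member of the MLL family and a regulator of Hox genes in blood precursors, stood at 166, 114, 69.1 and 108 CPM in Mettl3-RNP 1 to 4 and at 183, 129, 78.7 and 107 CPM in Pulsed 1 to 4. Mettl3-RNP was the lower library in pairs 1 to 3, and both replicate 3 libraries were the lowest of their groups. Its fitted difference was -0.12 on the log2 scale (SE 0.069, adjusted p 0.349 by edgeR).

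Kmt2d, which places H3K4 monomethylation at enhancers, stood at 475, 297, 292 and 272 CPM in Mettl3-RNP 1 to 4 and at 473, 342, 389 and 258 CPM in Pulsed 1 to 4. Its pairs differed in both directions, 2 of 4 higher, with a log2 fold change of -0.13 (SE 0.093, adjusted p 0.459 by edgeR). It was -0.041 without replicate 3, -0.21 without replicate 1 and -0.22 with GC and length offsets. Kmt2e, a family member without known catalytic activity, had a log2 fold change of -0.040 (95% interval -0.29 to 0.21). Setd1a and Setd1b, the catalytic subunits of the complexes that trimethylate H3K4 at promoters, had log2 fold changes of -0.012 (-0.22 to 0.19) and -0.016 (-0.33 to 0.29). With library size alone they were at 0.021 and 0.017, and without replicate 3 at 0.082 and 0.17. Setd7, a monomethyltransferase that also modifies other proteins, had a log2 fold change of -0.061 (-0.27 to 0.15), and was at 0.022 without replicate 3.

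The methyltransferases of H3K9, H3K79 and H4K20 differed less than the spread between pairs. Ehmt2, which dimethylates H3K9 together with Ehmt1, stood at 244, 207, 158 and 182 CPM in Mettl3-RNP 1 to 4 and at 229, 214, 160 and 198 CPM in Pulsed 1 to 4. The 2 groups covered nearly the same range, with a log2 fold change of -0.022 (SE 0.068, adjusted p 0.890 by edgeR). Ehmt1 was at -0.0036 and Suv39h2, an enzyme of heterochromatic H3K9 trimethylation, at 0.056. Dot1l, the H3K79 methyltransferase, stood at 68.5, 89.0, 76.5 and 85.7 CPM in Mettl3-RNP 1 to 4 and at 56.1, 75.2, 89.7 and 71.7 CPM in Pulsed 1 to 4. It was higher in pairs 1, 2 and 4 and lower in pair 3, with a log2 fold change of 0.14 (SE 0.099, adjusted p 0.459 by edgeR). The value for Dot1l was 0.056 without replicate 1 and 0.26 without replicate 3 (adjusted p 0.0971 in edgeR), and 0.054 with GC and length offsets. The H4K20 enzymes Kmt5a, Kmt5b and Kmt5c lay between -0.11 and 0.052.

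Among the remaining SET proteins, 2 lowly expressed members had the largest fitted differences after Ash1l. Setd4 stood at 1.69, 1.40, 1.30 and 1.71 CPM in Mettl3-RNP 1 to 4 and at 2.39, 1.90, 2.14 and 1.998 CPM in Pulsed 1 to 4. The groups did not overlap, yet the log2 fold change of -0.47 (SE 0.219) had an adjusted p of 0.258 in edgeR. Setd6, which methylates the NF-kappaB subunit RelA, stood at 3.90, 3.94, 4.04 and 5.75 CPM in Mettl3-RNP 1 to 4 and at 3.88, 2.79, 3.57 and 3.75 CPM in Pulsed 1 to 4. Its groups did not overlap either, by a narrow gap, and the log2 fold change was 0.33 (SE 0.161, adjusted p 0.280 by edgeR). The groups did not overlap in 2 of 44 members (4.5%) and in 3.24% of all tested genes. Setd3, the actin histidine methyltransferase, and Setd5 were at -0.068 and -0.030. The 4 tested SMYD proteins, lysine methyltransferases with a zinc finger in their SET domain, lay between -0.25 (Smyd3) and 0.086 (Smyd4), with no adjusted p under 0.233 in edgeR. Smyd1, a muscle gene, was near 0 in each library.

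Of 14 tested demethylases and JmjC proteins, 11 had fitted differences above 0, with a median log2 fold change of 0.051. Without replicate 1 the count above 0 was 6 of 14 and the median -0.0070. Kdm2b, an H3K36 demethylase that recruits a variant Polycomb repressive complex 1 to CpG islands, stood at 44.0, 34.7, 42.0 and 42.2 CPM in Mettl3-RNP 1 to 4 and at 37.3, 31.2, 36.6 and 35.6 CPM in Pulsed 1 to 4. Mettl3-RNP was higher in each pair by 0.24, 0.15, 0.20 and 0.24 on the log2 scale, and the replicate 2 libraries were the lowest of both groups. The fitted value was 0.21 (SE 0.067, adjusted p 0.119 by edgeR). Its paralog Kdm2a was at 0.055.

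Kdm1a, an H3K4 demethylase needed for blood cell maturation, stood at 54.7, 67.9, 106 and 57.9 CPM in Mettl3-RNP 1 to 4 and at 56.3, 62.4, 77.1 and 57.1 CPM in Pulsed 1 to 4. Replicate 3 was the highest of both groups and gave the largest difference, 0.45, while the other pairs lay between -0.042 and 0.12. Its log2 fold change was 0.14 (SE 0.092, adjusted p 0.427 by edgeR), and 0.032 without replicate 3. Kdm5b, a demethylase of H3K4 trimethylation, had a log2 fold change of 0.046 (95% interval -0.12 to 0.22), which ran from 0.0039 without replicate 1 to 0.10 without replicate 3, and Kdm5a one of -0.052. The 6 tested H3K9 demethylases, Kdm3a, Kdm3b, Kdm4a, Kdm4b, Kdm4c and Kdm7a, lay at most 0.13 above 0, and without replicate 1 only 3 of the 6 were above 0. Kdm8, a JmjC protein with hydroxylase activity, was at 0.040, but at -0.072 without replicate 1, -0.11 without replicate 3 and 0.23 without replicate 4. Kdm4d, a germline-enriched H3K9 demethylase that did not pass the filter, had at most 0.943 CPM in any library.

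Per exon length the members were well expressed in mast cells, with a median of 30.2 TPM in Pulsed cells against 10.8 TPM over all tested genes. All members are protein-coding, as are 12056 of the 14942 tested genes, so the medians cover unlike sets. The highest members were Ehmt2 at 136 ± 29.6 TPM, Setd7 at 135 ± 22.1, Kdm6b at 87.9 ± 44.8, Kmt2e at 84.7 ± 11.3 and Kmt2d at 71.1 ± 20.1 (SD, n = 4). Ehmt2 and Setd7 were level within their spread, as were Kdm6b, Kmt2e and Kmt2d. With the longest transcript in place of all exons as the length, Setd5 and Setd3 took the places of Kdm6b and Kmt2d. The mean level of Kdm6b in Pulsed cells also rests on replicate 3, at 153 TPM against 56.1 to 82.0 TPM in the other Pulsed libraries. By role, the 8 H3K4 methyltransferases, counted with Kmt2e, summed to 445 ± 65.6 TPM in Pulsed and 456 ± 107 TPM in Mettl3-RNP cells (SD, n = 4). The 4 H3K4 demethylases summed to 97.7 ± 15.5 and 106 ± 19.5 TPM (SD, n = 4). The 2 H3K27 methyltransferases summed to 62.9 ± 29.8 and 59.3 ± 31.2 TPM, and the H3K27 demethylase Kdm6b alone stood at 87.9 ± 44.8 and 79.1 ± 22.3 TPM (SD, n = 4).

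**Figure D3:**
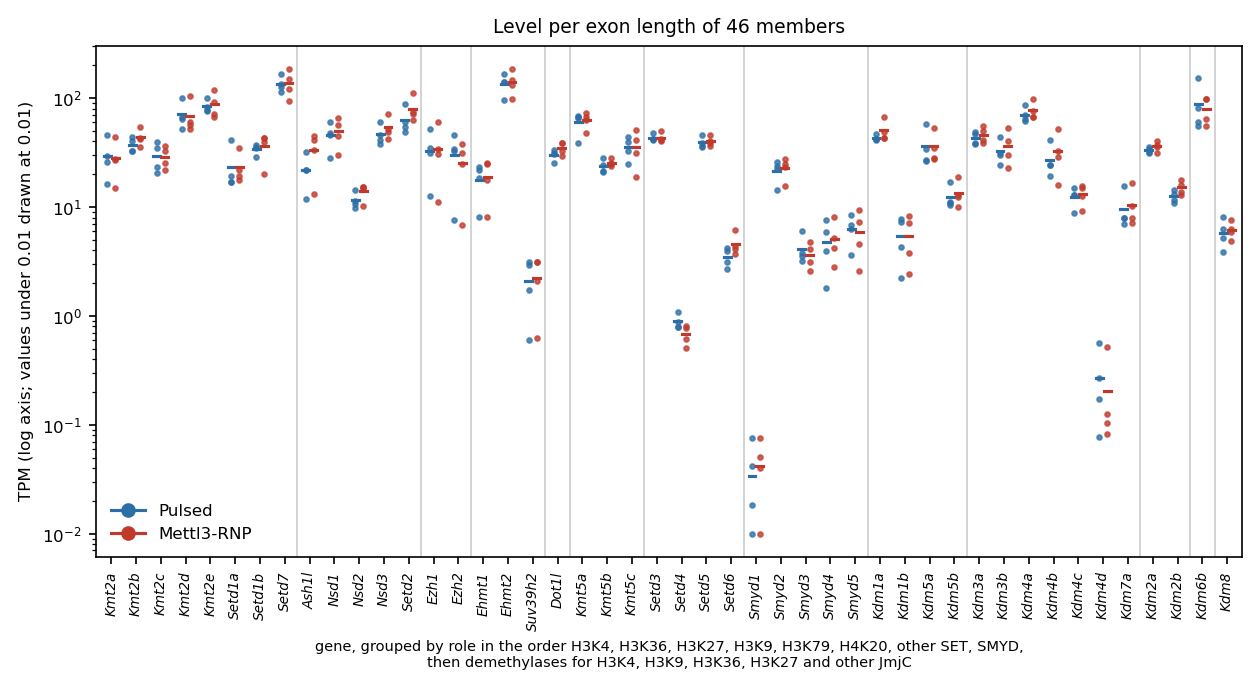
TPM (y axis, log scale) of each of the 46 members (x axis, grouped by role) in the 4 Pulsed and 4 Mettl3-RNP libraries (points), with the mean of each group as a short line. The points of both groups share the same range for most members, from 0.891 TPM for Setd4 to 136 TPM for Ehmt2 among tested members in Pulsed cells, with Kdm4d and Smyd1 below them.

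The members varied far more with the replicate number than with the group. For the median member, 89.7% of the variance of log2 CPM over the 8 libraries lay between replicate numbers and 1.69% between groups, against 78.3% and 5.68% for the median tested gene. Both replicate 3 libraries lay outside the range of the other 6 for 28 of 44 members (63.6%), against 43.3% of all tested genes. The same held for replicate 1 in 21 members (47.7%, against 28.7%), for replicate 4 in 7 (15.9%, against 14.2%) and for replicate 2 in 2 (4.5%, against 4.37%).

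In replicate 3, 15 members lay above the other numbers and 13 below. The 5 farthest above were Setd1a, Suv39h2, Kdm5a, Smyd5 and Kdm6b, with log2 differences from the other numbers of 1.25, 1.19, 1.14, 1.09 and 1.07. The 5 farthest below were Ezh2, Ezh1, Ehmt1, Kdm1b and Ash1l, at -1.99, -1.48, -1.19, -1.17 and -1.10. Both H3K27 writers thus stood on the low side. Enzymes of some other marks stood on opposite sides, as Setd1a was above and Kmt2a (-0.83) below among H3K4 writers, and Setd2 (0.93) was above and Ash1l below among H3K36 writers. Immediate early genes, which are induced within minutes of cell stimulation, also differed between replicate numbers. Summed over 12 genes they stood at 2477, 5700, 23771 and 341 CPM in Mettl3-RNP 1 to 4. In Pulsed 1 to 4 these genes summed to 2863, 3685, 20839 and 181 CPM. They were highest in replicate 3 and lowest in replicate 4 of both groups. Their part in the members' levels was not tested. Both libraries of a number shared these levels, and the mouse, the culture and the handling behind a number cannot be told apart.

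**Figure D4:**
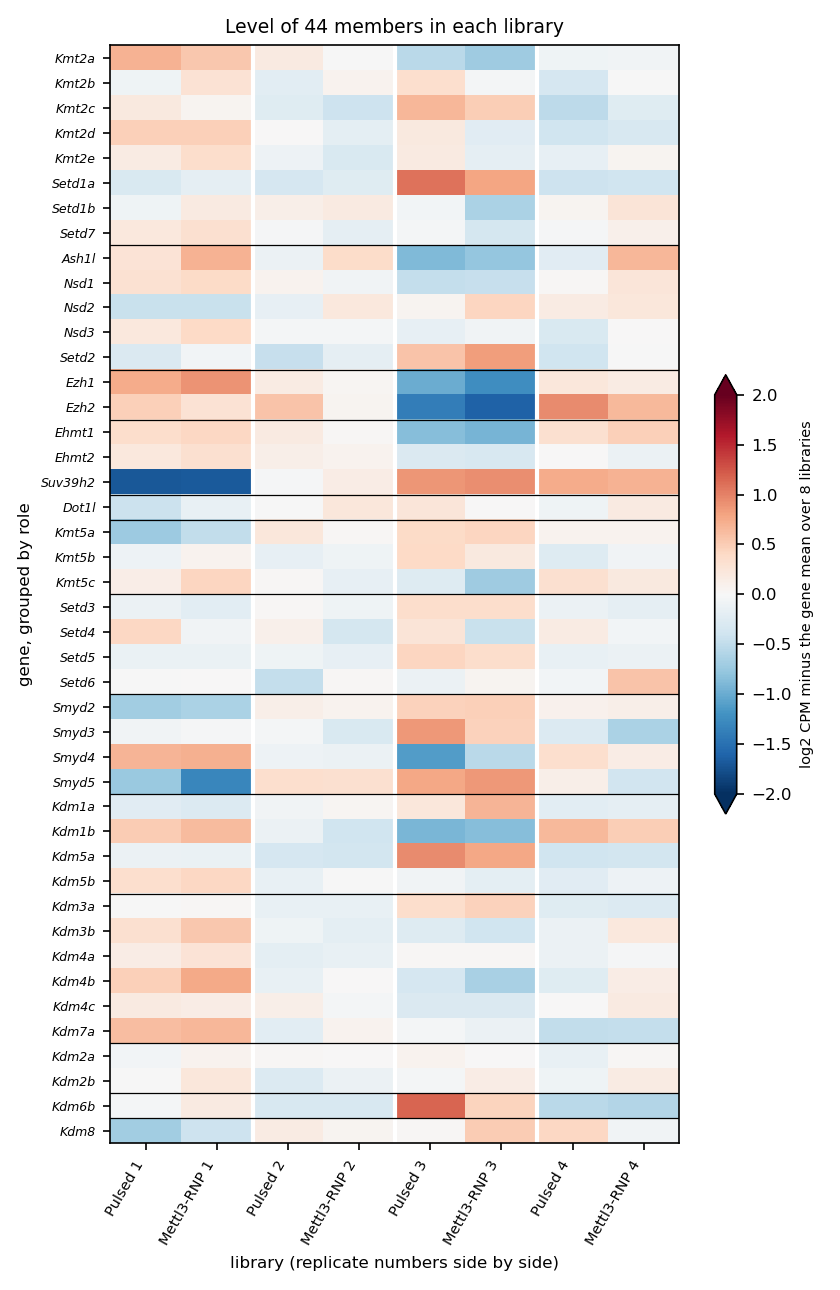
Log2 CPM of the 44 tested members (rows, grouped by role) in each library (columns, same-numbered libraries side by side) minus the gene's mean over the 8 libraries (colour). Columns of the same number resemble each other, with replicate 3 lowest for Ezh2 and Ezh1 and highest for Setd1a and Kdm5a.

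The genes that work with these enzymes were then described from lists of complex subunits and of JmjC and H3K9 proteins whose symbols fall outside the rule. Of 53 tested partner genes 1 passed an adjusted p of 0.05 in edgeR, where 3.74% of all tested genes did. It was Setdb1, an enzyme that trimethylates H3K9, silences retroelements with Trim28 and Atf7ip, and carries a SET domain under another gene name. Setdb1 stood at 91.6, 76.6, 48.6 and 104 CPM in Mettl3-RNP 1 to 4 and at 55.9, 53.4, 34.1 and 57.7 CPM in Pulsed 1 to 4. It rose in Mettl3-RNP cells in 4 of 4 pairs, by 0.71, 0.52, 0.51 and 0.84 on the log2 scale, and only Mettl3-RNP 3 lay within the Pulsed range. The fitted log2 fold change was 0.65 (SE 0.080, adjusted p 0.0139 by edgeR), a 1.57-fold change with a 95% interval of 1.38 to 1.78. It passed in 11 of 13 alternatives, with adjusted p from 4.64e-09 to 0.999, and did not pass without the block (0.999) or without replicate 2 (0.0588). The exons of Setdb1 overlap those of 3 genes on the opposite strand, Cers2 among them.

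Of the other H3K9 partners, Trim28 and Atf7ip had log2 fold changes of -0.23 and -0.074, and the heterochromatin protein gene Cbx5 had -0.31 with an adjusted p of 0.0589 in edgeR. Cbx5 passed in DESeq2 and 2 other alternatives. Among 8 PRC2 subunits, 7 had fitted differences below 0 (6 under the other scalings) with a median of -0.12, and none passed. Eed, which binds trimethylated H3K27, had a log2 fold change of -0.18 (SE 0.091, adjusted p 0.300 by edgeR). Suz12, a core PRC2 subunit, had one of -0.11 (SE 0.071, adjusted p 0.419 by edgeR). Without replicate 3, 4 of the 8 were below 0.

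Of the 10 tested subunits of the H3K4 methyltransferase complexes, 8 were below 0 (5 with library size alone) with a median of -0.040. Wdr5, shared by all of these complexes, was at -0.0092 (95% interval within 1.5-fold) and at 0.024 with library size alone. Ash2l, another shared subunit, stood at 69.2, 65.8, 69.2 and 69.2 CPM in Mettl3-RNP 1 to 4 and at 75.5, 77.6, 74.1 and 80.4 CPM in Pulsed 1 to 4. Its groups did not overlap, and its log2 fold change of -0.17 (SE 0.065) had an adjusted p of 0.174 in edgeR. The groups did not overlap in 1 of 53 tested partners (1.9%), against 3.24% of all tested genes. Rcor1, the scaffold that ties Kdm1a to histone deacetylases, was at -0.063 (SE 0.065, adjusted p 0.630 by edgeR), and Gse1, another protein of that complex, was at 0.40 with an adjusted p of 0.0931. Gse1 passed in 2 of 13 alternatives, in DESeq2 (0.00809) and with no filter on low counts (0.0243). The partners of Dot1l and Kdm2b had medians of 0.027 and 0.056 with none past 0.05, and both medians were below 0 without replicate 1 (-0.018 and -0.042). Of 8 genes known to depend on Kmt2a in blood precursors, 5 were tested and none passed, with a median of 0.033, and Hoxa7, Hoxa9 and Hoxa10 were at most 0.419 CPM in any library.

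Transcript length and exon number were not used by the rule. The canonical transcripts of tested members had a median length of 6570.5 bases and 21.5 exons, against 3486 bases and 9 exons for 12056 tested protein-coding genes, but the members ran from 1707 to 19826 bases and from 6 to 59 exons. Their median density of GGACT was 1.10 per kb against 1.04. Across the 44 members the log2 fold change had a Spearman rho of 0.075 with length, 0.18 with GGACT density and -0.042 with exon junctions per kb, and across the 12056 protein-coding genes the rho was 0.11, 0.084 and -0.19. Genes are not independent replicates, and all of these points share the same 8 libraries. The exons of 34 of 46 members overlap a gene on the opposite strand, Setd2, Kmt2d, Ehmt2 and Kdm5b being named members without such an overlap.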

How the data were processed

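RNA-seq was performed on poly-A RNA of 4 Mettl3-RNP and 4 Pulsed libraries (paired reads of 50 bases). Per the study's methods and processing notes, the authors aligned reads with HISAT2 2.2.1 to GRCm39 and summarised them over Ensembl genes by featureCounts 2.0.1. What was deposited are counts per gene, whole numbers without normalization. A batch correction named in the methods is not visible in them, and strand and multimapping settings are not given in the sources used here. GENCODE vM39 named 56017 of 56748 IDs (98.7%), and unnamed IDs held at most 0.113% of a library's counts.

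Genes were kept by filterByExpr of edgeR 4.0.16 (minimum count 10), scaled by TMM and compared by glmQLFit and glmQLFTest in R 4.3.3 with the replicate number as a block, with Benjamini-Hochberg adjustment over all genes. CPM used TMM library sizes, log2 CPM a prior count of 2, and TPM the union of exons. Standard errors came from the test statistic. Scripts were tested on simulated data. Intervals cover the spread between pairs, and since reads carried no molecular identifiers they do not stand for single molecules. P-values of the blocked fits measure how the differences vary between these pairs, and those without the block how libraries vary within a group.

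The design text names 4 mice, so a number probably stands for a mouse. After subtraction of the group means, libraries sharing a number were correlated at 0.825, 0.489, 0.879 and 0.765 over 11984 genes with at least 1 CPM (highest between different numbers 0.183). Over all 14942 genes pairs 1, 3 and 4 were at 0.534, 0.735 and 0.580, but pair 2 at 0.0738 lay below the highest correlation between different numbers, 0.249. Alternatives were DESeq2 1.42.0, limma 3.58.1 voom, other scalings, filters and offsets, no block and each pair left out.

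Values are given for members past an adjusted p of 0.05, the 5 largest differences, the 5 highest TPM and Ezh2, Dot1l, Setd1a, Setd1b, Kmt2a, Kmt2d, Kdm1a, Kdm5b and Kdm6b, and for partners past 0.05, Eed, Suz12, Wdr5, Ash2l and Rcor1. Kdm2b, Cbx5, Trim28, Atf7ip and Gse1 were added after their values had been seen, and values of other members describe their roles. Members and lists were chosen with earlier results of these data known.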

Additional observations from a re-analysis of the deposited data

Results flagged for a closer look

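In 46 groups of 4 values, from the named genes and Mettl3, 11 held a library set far apart from the other 3. All groups share the same 8 libraries and are not independent, so no number expected by chance is given. Of the 11, 7 were libraries of replicate 3.

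In Mettl3-RNP 3 these were Setd2 at 344 CPM, Setd1a at 66.7 CPM, Setd1b at 67.6 CPM and Suz12 at 107 CPM. In Pulsed 3 they were Setd2 at 286 CPM, Setd1a at 81.6 CPM and Mettl3 at 11.1 CPM. Setd2, Setd1a and Suz12 were high there, and Setd1b and Mettl3 were low. Setd2 and Setd1a were set apart in both libraries of the pair, Setd1b in Mettl3-RNP 3 only, where Pulsed 3 stood at 101 CPM.

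The other 4 were Setd6 at 5.75 CPM in Mettl3-RNP 4, Kmt2d at 475 CPM in Mettl3-RNP 1, Setd7 at 425 CPM in Pulsed 1 and Ash2l at 65.8 CPM in Mettl3-RNP 2. Of these, Ash2l was set apart by a low value within a narrow range.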

How the results depend on the processing

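The number of members past an adjusted p of 0.05 was 0 with edgeR and the replicate block. It was 3 in DESeq2 and with at least 10 counts in every sample (Ash1l, Setd2 and Ezh2), 2 with GC and length offsets, and 1 with library size alone, with no filter, in limma-voom and with the newer quasi-likelihood estimate, an alternative added after the data had been seen. It ranged from 0 to 1 over the fits that left out a pair, as did the number past a fold change of 1.5 as well, and both were 1 without replicate 3. With no replicate block 0 members, 0 partners (1 with the block) and 0 of all genes (559 with the block) passed, where 3.87% of all genes had an unadjusted p under 0.05. Blocking took the common biological coefficient of variation from 0.407 to 0.159. Partners past 0.05 were 2 with no filter, with at least 10 counts and with the newer estimate, 3 in DESeq2, and 0 to 1 with a pair left out. Over all genes 993 of 33650 (2.95%) passed with no filter, 959 of 12504 (7.67%) with at least 10 counts, 1449 of 12334 (11.7%) in DESeq2, and 26 to 383 (0.174% to 2.57%) with a pair left out, lowest without replicate 2. The share was 4.23% with GC and length offsets, near the 4.5% of members there, 3.98% with library size alone, 4.3% in limma-voom and 4.96% with the newer estimate. The cause was not tested.

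Among named genes 15 fitted values changed sign, none of them past the threshold. With library size alone Ehmt2 was at 0.011, Setd1a at 0.021, Setd1b at 0.017 and Wdr5 at 0.024, where the median of all genes moved as well, from -0.0013 to 0.032. With no filter Setd1a was at 0.0054 and Wdr5 at 0.0066, and with no replicate block Setd1b was at 0.021. With a pair left out Ehmt2 ranged from -0.096 to 0.022, Setd7 from -0.15 to 0.022, Kdm6b from -0.29 to 0.049, Kmt2e from -0.15 to 0.067, Setd1a from -0.095 to 0.082, Setd1b from -0.14 to 0.17 and Wdr5 from -0.029 to 0.0022, with the upper end without replicate 4 for Ehmt2 and Wdr5 and without replicate 3 for the others. The median log2 fold change of the members lay between -0.047 (without replicate 1) and 0.051 (library size alone). Per length of the longest transcript the members' median was 35.1 TPM. Setdb1 lost its call with no replicate block (0.67) and without replicate 2 (0.68), and Mettl3 with no replicate block (-1.31). The planned older quasi-likelihood estimate is the default of this edgeR version and gave no separate value. Summed counts of the tested members ran from 539 to 109694 over the 8 libraries, with a median of 25720, and the effect of depth was not tested.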
